A study of Mus musculus with 6 samples.

Results

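Neat1, Malat1, Gas5, Snhg1, Snhg12, Snhg15, Mir17hg and Mir22hg are long noncoding RNAs (lncRNAs) that either stay in the nucleus or carry small RNAs within their genes. These 8 genes were taken by name from the 55335 gene rows of the count table, and all 8 passed the filter on low counts that kept 15881 genes for testing. Wild-type mouse embryonic fibroblasts (MEFs), adherent connective tissue cells, were seeded on a membrane with 3 μm pores, and those collected on the far side after 15 h (Confine) were compared with parental cells (Ctrl). RNA selected by its poly(A) tail was sequenced from 3 samples labelled as Ctrl and 3 as Confine. Confine replicates 1 and 2 do not differ in any of the 55335 genes, so they enter once, as what is called the repeated library here, and 3 Ctrl libraries were set against 2 Confine libraries. The labels do not say whether replicates came from separate cultures, so p-values measure only the spread between these libraries. Collected cells had also been selected for reaching the far side, and the effects of selection and of passage cannot be told apart.

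Neat1 is the scaffold of paraspeckles, nuclear bodies built when its long isoform binds RNA-binding proteins such as NONO and SFPQ. Malat1 gathers in nuclear speckles, where splicing factors of the SR family are stored. Gas5, Snhg1, Snhg12 and Snhg15 carry small nucleolar RNAs (snoRNAs) in their introns. Once spliced out, snoRNAs join proteins such as fibrillarin or dyskerin and guide the chemical modification of ribosomal RNA. The spliced host RNA of several such genes begins with a run of pyrimidines and is broken down during translation by nonsense-mediated decay, so its level can change with translation as well as with transcription. Mir17hg and Mir22hg are the primary transcripts from which the nuclear enzyme Drosha cuts microRNAs.

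After pore passage 5 of the 8 RNAs rose and 3 did not pass the test. Neat1 rose 2.20-fold, Malat1 1.81-fold, Mir22hg 1.79-fold, Gas5 1.55-fold and Snhg12 1.48-fold. Of all 15881 tested genes, 23% passed the test (edgeR's quasi-likelihood test, Benjamini-Hochberg adjusted p under 0.05), with 12.8% higher and 10.2% lower in Confine. None of the 8 fell by edgeR, DESeq2 or limma-voom, and 1 (Snhg15) was lower at an unadjusted p under 0.05 in edgeR. None reached the absolute log2 fold change of 1.5 that the study also required, which 8% of tested genes did along with the adjusted p. The median log2 fold change of the 8 was 0.60, and that of all tested genes was -0.0021. The 8 were chosen with earlier results of these data known, so this contrast was not tested. A change in the share of cells expressing an RNA and a change in its level per cell cannot be told apart in such bulk samples. With each library left out in turn, between 1 and 5 of the 8 passed the test, and without the repeated library only Neat1 did.

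The 3′ ends of Neat1 and Malat1 bear on what a poly(A) library can hold. Malat1 and the long Neat1 isoform end not in a poly(A) tail but in a genomically encoded A-rich tract that folds with U-rich motifs into a triple helix. The ends below, from GENCODE M21 transcripts, are at chr19:5795962-5796089 for Malat1 and chr19:5824708-5824808 for Neat1 (GRCm38, minus strand), with the U-rich motifs and the A-rich tract in capitals.
Malat1 3′ end: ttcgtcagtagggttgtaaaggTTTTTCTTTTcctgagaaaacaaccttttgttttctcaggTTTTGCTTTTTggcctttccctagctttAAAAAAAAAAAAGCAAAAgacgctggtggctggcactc
Neat1 3′ end: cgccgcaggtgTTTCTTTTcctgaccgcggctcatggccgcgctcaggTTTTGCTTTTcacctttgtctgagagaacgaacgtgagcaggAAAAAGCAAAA
The annotated Neat1 transcript of 20771 bases stops at the last base of its tract, while the annotated Malat1 transcript of 6983 bases runs another 292 bases, across the small RNA cut from its end. Among 141767 mouse transcripts of GENCODE M21, the order TTTCTTTT, TTTTGCTTTT, AAAAAGCAAAA within 110 bases on the transcript strand occurred in 2, which belonged to Malat1 and Neat1. The strings are those in capitals at the Neat1 end above and lie within the Malat1 end too, so both matches were set in advance. Neat1 also has a short polyadenylated isoform from the same start, and counts per gene do not separate the isoforms. Whether poly(T) capture kept these ends in like shares in both groups was not tested.

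The snoRNA hosts are shown by their start sites and by the RNAs they carry. The lines below give 30 bases before to 50 bases after a RefSeq start (GRCm38.p6), with capitals for the longest run of C and T that touches positions -5 to +10. The windows are at chr1:161035136-161035215 (+) for Gas5, chr19:8723457-8723536 (+) for Snhg1, chr4:132308648-132308727 (+) for Snhg12 and chr11:6528711-6528790 (-) for Snhg15.
Gas5 start: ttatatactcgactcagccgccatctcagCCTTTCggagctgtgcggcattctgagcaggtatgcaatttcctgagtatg
Snhg1 start: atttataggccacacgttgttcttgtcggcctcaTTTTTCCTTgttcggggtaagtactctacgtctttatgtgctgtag
Snhg12 start: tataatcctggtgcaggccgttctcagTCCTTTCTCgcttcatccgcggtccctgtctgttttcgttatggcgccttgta
Snhg15 start: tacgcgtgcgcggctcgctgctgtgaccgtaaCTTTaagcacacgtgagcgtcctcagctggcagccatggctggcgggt
The run was 9 bases long in Snhg1 and Snhg12, 6 in Gas5 and 4 in Snhg15. It began at position -1 in Gas5, 5 in Snhg1, -3 in Snhg12 and 3 in Snhg15. The runs of Snhg1 and Snhg15 thus lie past the annotated first base. Of 32851 RefSeq start windows, 7.89% had a run of 9 or more and 24.4% a run of 6 or more. RefSeq lists an upstream Gas5 start as well, with a run of 3 bases. Snhg12 rose and Snhg1, with a run as long, did not pass the test. Whether run length bears on the change was not tested.

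GENCODE M21 places 10 snoRNA genes inside Gas5 (2 of them overlapping entries named Snord80), 8 inside Snhg1, 5 inside Snhg12 (2 of them overlapping entries named Snora16a) and 1 inside Snhg15. Both classes are represented, as the examples below show. Box C/D snoRNAs guide methylation of ribosomal RNA, and the capitals in Snord80 and Snord99 mark their first TGATGA and last CTGA. Box H/ACA snoRNAs guide pseudouridylation, and the capitals in Snora61 and Snora9 mark an ACA that is followed by the last 3 bases. The genes are at chr1:161037601-161037681 (+), chr4:132310691-132310764 (+), chr4:132310240-132310369 (+) and chr11:6528033-6528165 (-). Only snoRNAs in which these marks were found are printed. No TGATGA was found near the start of Snord78 in Gas5 or of Snord22 in Snhg1. No ACA was found near the end of Snora44 in Snhg12.
Snord80 in Gas5: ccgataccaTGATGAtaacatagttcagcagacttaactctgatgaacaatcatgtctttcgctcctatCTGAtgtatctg
Snord99 in Snhg12: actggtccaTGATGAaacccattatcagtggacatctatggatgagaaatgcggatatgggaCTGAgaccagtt
Snora61 in Snhg12: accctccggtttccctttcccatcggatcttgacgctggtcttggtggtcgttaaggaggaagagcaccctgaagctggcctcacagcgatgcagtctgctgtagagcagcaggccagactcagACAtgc
Snora9 in Snhg15: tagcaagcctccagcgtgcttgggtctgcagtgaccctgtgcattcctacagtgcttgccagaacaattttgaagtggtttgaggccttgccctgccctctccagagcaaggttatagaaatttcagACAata

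Mir17hg carries 6 microRNA genes, the miR-17-92 cluster that is best known for promoting proliferation, and Mir22hg carries 1. Mature microRNAs find their targets by the seed, bases 2 to 8, which is in capitals below. The RefSeq sequences are grouped by seed, so that miR-17-5p stands with miR-20a-5p and miR-19a-3p with miR-19b-3p.
miR-17-5p: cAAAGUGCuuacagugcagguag
miR-20a-5p: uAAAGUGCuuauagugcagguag
miR-18a-5p: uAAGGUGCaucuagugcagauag
miR-19a-3p: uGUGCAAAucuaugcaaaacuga
miR-19b-3p: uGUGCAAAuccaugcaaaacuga
miR-92a-3p: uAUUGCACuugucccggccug
miR-22-3p: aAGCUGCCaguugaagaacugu
The count table cannot report on these small RNAs themselves. All 31 snoRNA and microRNA rows annotated within the 8 genes on the same strand held 0 counts in every library, although of all 1507 snoRNA rows 299 and of all 2202 microRNA rows 419 had at least 1 count. Each of the 31 overlaps an annotated exon of its host, and how the counting treated reads that fall on both is not given in the sources used here. The values that follow therefore describe the host RNAs only.

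Neat1 (ENSMUSG00000092274.3) lies at chr19:5824708-5845478 on the minus strand. Its level in CPM, normalized counts per 1000000 counts of the library, was 810.3, 1076 and 1250 in Ctrl and 2190 and 2414 in Confine. Every Confine library was above every Ctrl library, by a wide gap. The mean went from 1046 ± 221.5 (SD, n = 3) to 2302 ± 158.9 (SD, n = 2), a log2 fold change of 1.14 ± 0.19 (SE) with a 95% interval of 0.73 to 1.55 and an adjusted p of 0.000262 by edgeR. Neat1 kept this call in each of the 15 other fits run, in which the log2 fold change was between 0.93 and 1.27. It ranked number 72 of all tested genes by mean CPM.

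Malat1 (ENSMUSG00000092341.3) lies at chr19:5795690-5802672 on the same strand, with 22035 bases between the annotated genes. Its level was 738.5, 1477 and 978.2 CPM in Ctrl and 1952 and 1907 CPM in Confine. The Ctrl libraries differed 2-fold among themselves, and both Confine libraries were above the highest of them. This gave a log2 fold change of 0.86 ± 0.23 (SE), with a 95% interval of 0.38 to 1.34 and an adjusted p of 0.00988 by edgeR. The call was lost without the repeated library, when the log2 fold change was 0.84 at an adjusted p of 0.0566.

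**Figure D1:**
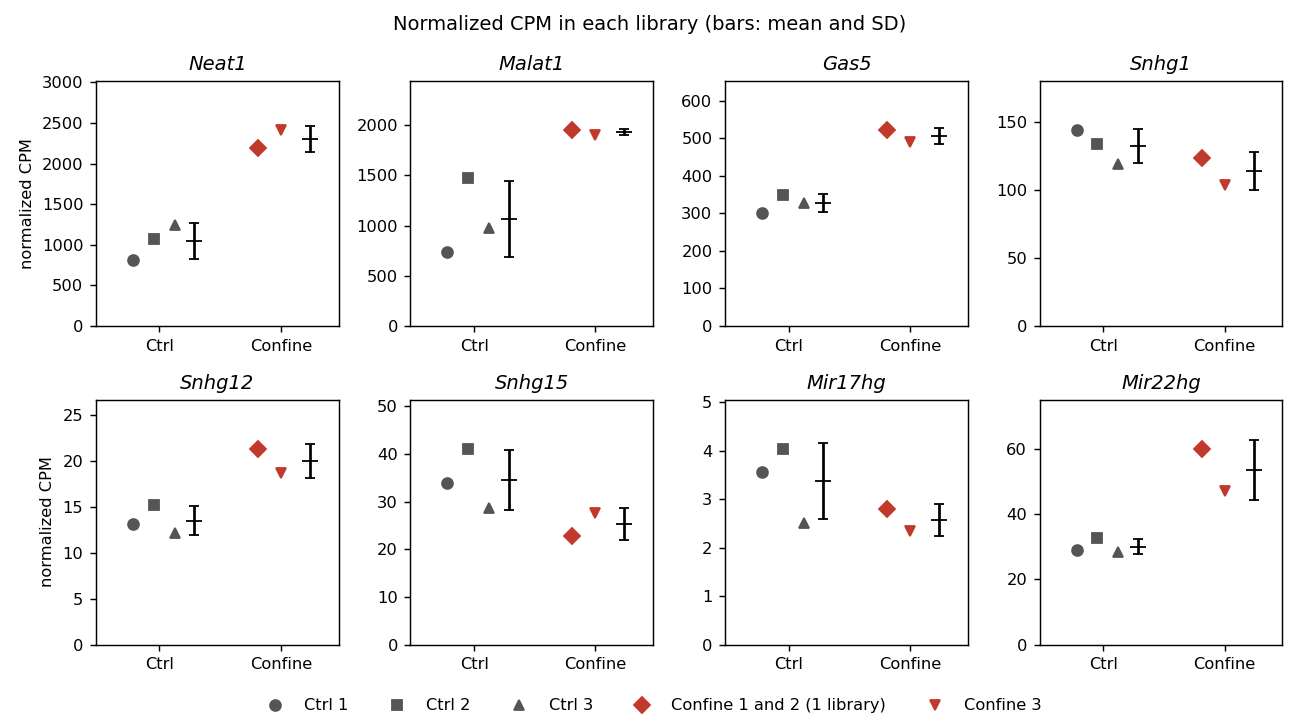
Normalized CPM of the 8 RNAs in each library, on linear axes that start at 0. Grey points are the 3 Ctrl libraries, red points the 2 Confine libraries, and black bars the mean and SD of each group. Neat1, Malat1, Gas5, Snhg12 and Mir22hg lie above every Ctrl library in both Confine libraries, and Snhg15 lies below.

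The balance between the neighbouring RNAs was compared within each library, which needs no scaling between libraries. Neat1 had 1.097, 0.729 and 1.28 counts per Malat1 count in Ctrl, and 1.12 and 1.27 in Confine. The ranges overlapped. The mean log2 ratio was 0.01 ± 0.42 (SD, n = 3) in Ctrl and 0.25 ± 0.12 (SD, n = 2) in Confine. The difference of 0.24 was not larger than the spread (two-sided exact permutation test over libraries, p = 0.7, where 0.1 is the smallest p that 3 against 2 libraries allow). Leaving out 1 library at a time gave differences from 0.01 (without Ctrl replicate 2) to 0.41 (without Ctrl replicate 3). Neat1 and Malat1 together made up 0.161%, 0.276% and 0.235% of all counts in Ctrl and 0.377% and 0.399% in Confine.

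Gas5 (ENSMUSG00000053332.13, chr1:161034422-161038539, plus strand), a snoRNA host whose spliced RNA accumulates when growth is arrested, was the most abundant host of the group. Its level was 302.1, 350.1 and 328.1 CPM in Ctrl and 522.1 and 490.2 CPM in Confine. The groups were far apart compared with the spread within each. The log2 fold change was 0.63 ± 0.17 (SE), with a 95% interval of 0.27 to 0.99 and an adjusted p of 0.0122 by edgeR. The adjusted p was 0.0897 without the repeated library, 0.0525 without Confine replicate 3 and 0.069 without Ctrl replicate 1, so the call rested on having these libraries. Zbtb37 overlaps Gas5 on the opposite strand and held 100 to 155 counts in every library, far below the 7716 to 15454 of Gas5.

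Snhg12 (ENSMUSG00000086290.9, chr4:132308623-132311024, plus strand) was measured at 13.16, 15.27 and 12.16 CPM in Ctrl and at 21.39 and 18.74 CPM in Confine. Both Confine libraries exceeded all Ctrl libraries. The log2 fold change was 0.57 ± 0.20 (SE), with an adjusted p of 0.047 by edgeR, just inside the threshold. The call was also lost in edgeR fits of the same libraries with other scalings or filters. The adjusted p was 0.0516 with DESeq2 size factors, 0.0501 with upper quartile scaling and 0.0719 with no filter on low counts. Leaving out any library but Ctrl replicate 2 lost the call, with adjusted p-values from 0.127 (without Confine replicate 3) to 0.285 (without the repeated library).

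Snhg1 (ENSMUSG00000108414.1, chr19:8723475-8726443, plus strand) was measured at 143.8, 133.2 and 119.2 CPM in Ctrl and 123.6 and 103.6 CPM in Confine. The groups overlapped. The log2 fold change was -0.22 ± 0.18 (SE), with an adjusted p of 0.438 by edgeR and a 95% interval of -0.60 to 0.17.

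Snhg15 (ENSMUSG00000085156.8, chr11:6525591-6528760, minus strand) was measured at 33.82, 41.12 and 28.66 CPM in Ctrl and 22.84 and 27.56 CPM in Confine. Both Confine libraries were below all Ctrl libraries, with a narrow gap. The log2 fold change was -0.46 ± 0.20 (SE) at an adjusted p of 0.117 by edgeR, which did not pass. It passed without Ctrl replicate 3, at -0.59 and an adjusted p of 0.0474.

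Mir22hg (ENSMUSG00000085148.1, chr11:75461539-75466676, plus strand), the host of miR-22, was measured at 29.02, 32.77 and 28.45 CPM in Ctrl and 60.17 and 47.17 CPM in Confine. The Ctrl libraries lay close together and both Confine libraries were well above them. Mir22hg rose by a log2 fold change of 0.84 ± 0.18 (SE), with a 95% interval of 0.45 to 1.22 and an adjusted p of 0.00261 by edgeR. Without the repeated library, which had the higher of the Confine values, it was 0.65 at an adjusted p of 0.0984. Tlcd2 overlaps Mir22hg on the same strand and held 78 to 159 counts per library, against 669 to 1781 of Mir22hg.

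Mir17hg (ENSMUSG00000089726.2, chr14:115042879-115046727, plus strand) was the least abundant of the 8, at 3.558, 4.044 and 2.509 CPM in Ctrl and 2.804 and 2.343 CPM in Confine. These levels came from 59 to 107 counts per library, and the groups overlapped. The log2 fold change was -0.39 ± 0.32 (SE), with a 95% interval of -1.05 to 0.27 and an adjusted p of 0.419 by edgeR. That interval holds both no change and a fall of 1 log2 unit, so a moderate change was not detectable at this depth.

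**Figure D2:**
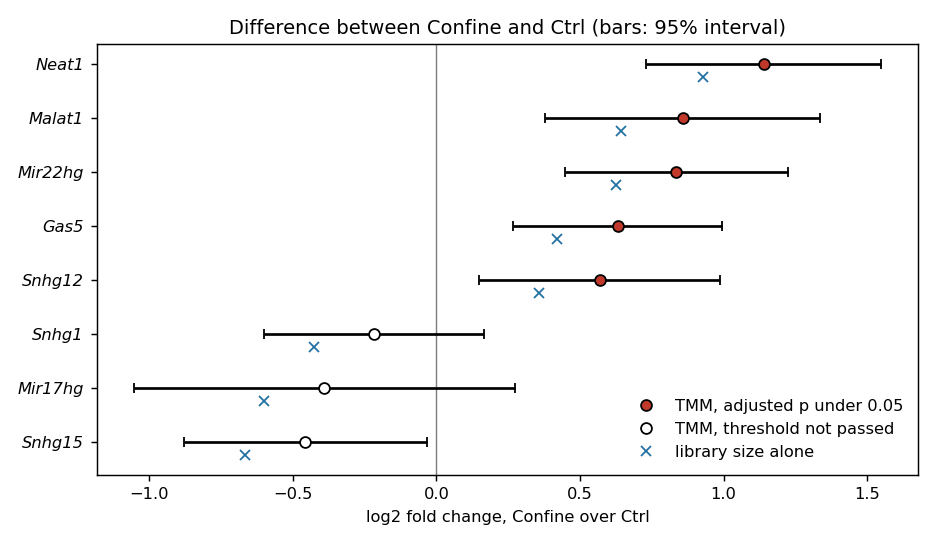
Log2 fold change of Confine over Ctrl for each RNA. Circles are edgeR estimates with TMM normalization, filled where the adjusted p was under 0.05, with bars for the 95% interval, and crosses are estimates scaled by library size alone. The crosses lie to the left of the circles for all 8 RNAs, and the sign of each estimate is kept.

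Seen together, the groups did not overlap for 6 of the 8 RNAs, 5 with Confine higher and 1 with Confine lower. Among all tested genes 49.5% had groups that did not overlap, 25.9% with Confine higher and 23.6% with Confine lower. The snoRNA hosts did not move as a group, since Gas5 and Snhg12 rose while the log2 fold changes of Snhg1 and Snhg15 were below 0, and neither did the microRNA hosts. Scaling by library size alone in place of TMM moved the median log2 fold change of all genes from -0.0021 to -0.21. Under that scaling Neat1, Malat1 and Mir22hg rose, Gas5 (0.42) and Snhg12 (0.36) no longer passed, and Snhg15 fell (-0.67, adjusted p = 0.0226 by edgeR).

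**Figure D3:**
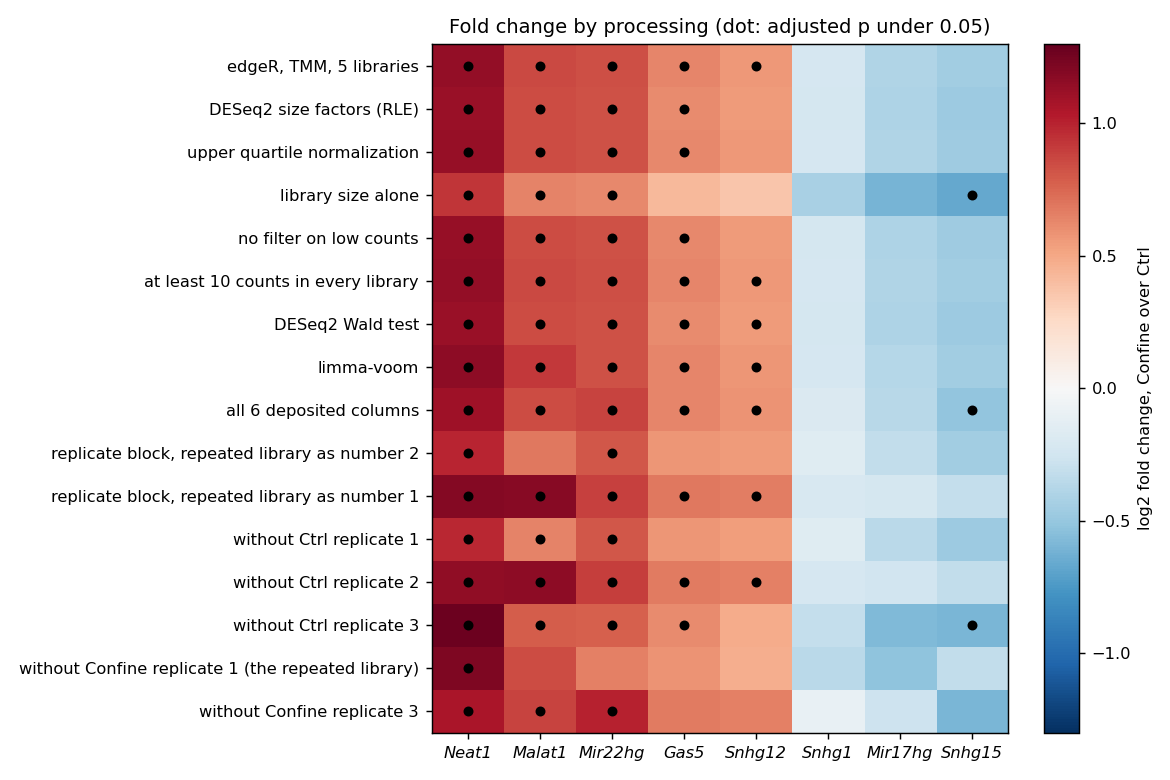
Log2 fold change of each RNA, in colour, in the edgeR fit with TMM and 5 libraries (top) and in 15 other fits, with a dot where the adjusted p was under 0.05. Neat1 has a dot in every fit, Snhg1 and Mir17hg have none, and no RNA changes sign.

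Levels were also compared per length, as CPM per kilobase of annotated exon. The exons of all annotated transcripts were joined, which takes in introns of some hosts (the whole gene of Snhg1 and Snhg12, and 3760 of 4118 bases of Gas5), so the levels of these spliced RNAs per length are too low and the order below holds on this length only. In Ctrl, Malat1 was highest at 152.5 ± 53.95 (SD, n = 3), followed by Gas5 at 86.91 ± 6.387, Neat1 at 50.34 ± 10.67, Snhg1 at 44.49 ± 4.151, Snhg15 at 25.41 ± 4.605, Mir22hg at 15.63 ± 1.219, Snhg12 at 5.633 ± 0.6601 and Mir17hg at 0.9532 ± 0.2219. Neat1 and Snhg1 differed by less than the SD of Neat1 and cannot be ordered in Ctrl. In Confine, Malat1 was at 276.3 ± 4.591 (SD, n = 2), Gas5 at 134.6 ± 6.002, Neat1 at 110.8 ± 7.652, Snhg1 at 38.26 ± 4.753, Mir22hg at 27.9 ± 4.778, Snhg15 at 18.54 ± 2.454, Snhg12 at 8.353 ± 0.7787 and Mir17hg at 0.7278 ± 0.0923. Mir22hg stood above Snhg15 in Confine and below it in Ctrl. The exon length of Neat1 is that of the long isoform, so reads from the short isoform make its level per length too low by an unknown amount.

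The spread between Ctrl libraries differed among the RNAs. The SD was 35.4% of the mean for Malat1, 23.3% for Mir17hg, 21.2% for Neat1 and 18.1% for Snhg15, and between 7.35% and 11.7% for Gas5, Mir22hg, Snhg1 and Snhg12. Ctrl replicate 1 held the lowest level of Neat1, Malat1 and Gas5. Without it the log2 fold change was 0.98 for Neat1 and 0.65 for Malat1, both still past the threshold.

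The genes with the most similar profile over the 5 libraries, by the Euclidean distance between centred log2 CPM values, were Hcfc1r1 and Spred3 for Neat1 (distances 0.171 and 0.187) and Midn and Cdkn1b for Malat1 (0.138 and 0.143). For Gas5 they were Nfkb1 and Mrps12 (0.0663 and 0.0679), and for Mir22hg Mndal and Ero1lb (0.0827 and 0.111). Snhg12 was closest to Runx3 and Sec16a, Snhg1 to Qtrt1 and Elk1, Snhg15 to Eri1 and Arap1, and Mir17hg to Xpot and Rnf213. With 5 libraries in 2 groups, such a distance is set largely by the difference between the groups.

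The RNAs that encode paraspeckle proteins did not rise with Neat1 in the edgeR fit, and protein levels were not measured. Of 24 genes of paraspeckle proteins, 5 fell, none rose and 19 did not pass, with a median log2 fold change of -0.31. Beside this list and the later ones stand 12.8% higher and 10.2% lower among all tested genes. A list count near these shares is not a trait of the list. Rbm14, which encodes a protein needed to assemble paraspeckles, fell most, from 43.12 ± 7.798 to 19.18 ± 1.919 CPM (log2 fold change -1.17). Tardbp (-0.80), Taf15 (-0.55) and Hnrnpm (-0.54) were also among those that fell, and all encode RNA-binding proteins. The core genes did not pass, with log2 fold changes of -0.28 for Nono, -0.47 for Sfpq and -0.46 for Pspc1 and adjusted p-values of 0.372, 0.187 and 0.155 by edgeR. At an unadjusted p under 0.05, 1 gene of the list was higher, and 1 rose by DESeq2. The number that fell was 2 without the repeated library, 2 without Confine replicate 3 and 3 without Ctrl replicate 1, and 10 with library size alone.

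Among 25 genes of nuclear speckle and SR proteins, a list that also counts Elac2, 6 fell and 2 rose, with a median of -0.28. U2af2, which encodes the large subunit of the factor that reads the 3′ splice site, fell from 96.44 ± 8.521 to 49.78 ± 13.26 CPM (-0.95). Tra2a (-0.77), Srsf7 (-0.72), Srsf3 (-0.70), Tra2b (-0.59) and Srsf1 (-0.58) also fell, and each encodes an SR or SR-like splicing regulator. Srsf2, an SR protein gene, rose (0.78), as did Clk1, which encodes a kinase of SR proteins (0.56). Elac2, which encodes the enzyme that trims the 3′ ends of tRNAs and of the small RNA cut from Malat1, was at -0.40 with an adjusted p of 0.275 by edgeR. The numbers that fell and rose were 3 and 0 without the repeated library, 1 and 1 without Confine replicate 3, 4 and 1 without Ctrl replicate 1, and 11 and 1 with library size alone.

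Of 18 genes of proteins that bind or assemble snoRNAs, 8 fell and none rose, with a median log2 fold change of -0.54. Dkc1 encodes dyskerin, the pseudouridine synthase of box H/ACA particles, and went from 270.3 ± 64.48 to 119.6 ± 36.01 CPM (-1.18). Fbl encodes fibrillarin, the methyltransferase of box C/D particles, and went from 146.7 ± 16.75 to 87.08 ± 3.467 CPM (-0.75). Nop56 (-1.16) and Nop58 (-0.93) encode core box C/D proteins, Pih1d1 (-0.67) and Ruvbl1 (-0.58) assembly factors, Nolc1 (-0.67) a nucleolar chaperone and Nhp2 (-0.58) a core box H/ACA protein. Snu13, which encodes a further core box C/D protein, did not pass (-0.38, adjusted p = 0.157 by edgeR). By unadjusted p under 0.05, 1 gene was higher, and by DESeq2 none rose and 8 fell. The number that fell was 4 without the repeated library, 2 without Confine replicate 3, 4 without Ctrl replicate 1 and 10 with library size alone.

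**Figure D4:**
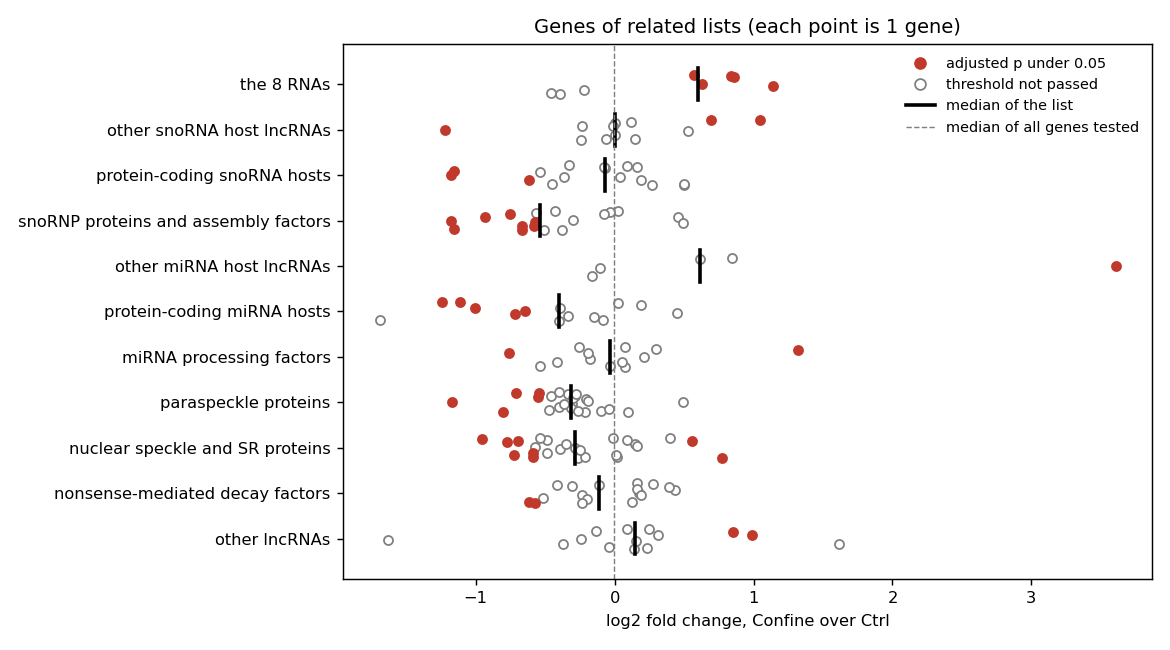
Log2 fold change of Confine over Ctrl for the tested genes of each list (1 point per gene), red where the adjusted p was under 0.05. Black bars are list medians and the dashed line is the median of all tested genes, which is close to 0. The median of the 8 RNAs is 0.60 and that of the snoRNP list is -0.54. The 8 RNAs and the lists were chosen with earlier results of these data known.

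Of 12 other tested snoRNA host lncRNAs, Zfas1 and Snhg18 rose and Dancr fell. Zfas1, host of several box C/D snoRNAs, went from 65.25 ± 10.49 to 134.9 ± 5.92 CPM (1.05), Snhg18 from 32.81 ± 8.066 to 53.15 ± 10.13 CPM (0.70) and Dancr from 9.487 ± 0.4593 to 4.049 ± 1.346 CPM (-1.22). The median was 0.0011. Without Confine replicate 3, 1 of 13 then tested rose and none fell, and without Ctrl replicate 1, 1 rose. Of 16 protein-coding snoRNA hosts none rose and 3 fell, namely Dkc1, Nop56 and Eif4g2 (-0.62, a translation factor gene), with a median of -0.07. Dkc1 and Nop56 were already counted above, among the genes of proteins that bind or assemble snoRNAs. At an unadjusted p under 0.05, 2 of the 16 were higher, and 2 rose by DESeq2. With library size alone, 6 fell.

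A wider count used the annotation alone, taking each tested gene that contains a whole snoRNA gene on its own strand. Of 29 such lncRNAs, 6 rose and 6 fell (20.7% each way), beside 11.9% and 4.39% of all 1526 tested lncRNAs. Of 211 protein-coding snoRNA hosts, 7.11% rose and 13.7% fell, beside 13.7% and 11.9% of all 12203 protein-coding genes tested. Of 40 microRNA host lncRNAs, 6 rose and 2 fell. Of 633 protein-coding microRNA hosts, 17.4% rose and 11.4% fell, with a median log2 fold change of 0.05. The lncRNA host classes contain the snoRNA and microRNA hosts among the 8 RNAs, and the 1526 lncRNAs contain all 8. No difference between classes was tested. Gene type was that of the annotation, so the lncRNA hosts include Cct6a and Zswim6, whose symbols are those of protein-coding genes. Zswim6 was among the microRNA hosts that rose.

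Among 5 other tested microRNA host lncRNAs, H19 rose and the rest did not pass, and 2 of them rose without Ctrl replicate 2. H19, host of miR-675 and an imprinted RNA of embryonic tissue, had 105, 38 and 54 counts in Ctrl and 563 and 1039 in Confine (log2 fold change 3.61). Mir100hg (listed as 3110039I08Rik) was at 0.62 with an adjusted p of 0.0675 by edgeR. Protein-coding microRNA hosts had 5 falls and no rise among 14 (Mcm7, Smc4, Pank1, Tln2 and Ctdsp1), with a median of -0.40, which is of the opposite sign to that of all 633 protein-coding hosts by annotation. Mcm7, a replicative helicase gene that hosts the miR-106b-25 cluster related to miR-17-92, went from 152.7 ± 14.96 to 64.47 ± 12.53 CPM (-1.24). Smc4, a condensin gene (-1.11), Tln2, a talin gene (-0.72), and Ctdsp1, a phosphatase gene (-0.65) were also among them. At an unadjusted p under 0.05, 1 of the 14 was higher, and none rose by DESeq2. The number that fell was 3 without the repeated library and 8 with library size alone.

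The genes that process microRNAs showed 1 rise and 1 fall among 13, where 12.8% of all tested genes were higher and 10.2% lower. Ago2, whose protein holds the mature microRNA, rose from 64.49 ± 8.562 to 160.8 ± 21.39 CPM (1.32). At least 1 gene of the list rose with each library left out. Tarbp2, which encodes a partner of Dicer, fell (-0.76), and no gene of the list fell without the repeated library, without Confine replicate 3 or without Ctrl replicate 1. Drosha (-0.03) and its partner Dgcr8 (-0.41) did not pass, with adjusted p-values of 0.932 and 0.236 by edgeR. Of 17 genes of nonsense-mediated decay, Smg5 (-0.62) and Etf1 (-0.57) fell and none rose, where 10.2% of all tested genes were lower. Upf1, the central helicase of that pathway, was at -0.51 with an adjusted p of 0.0678 by edgeR. At an unadjusted p under 0.05, 2 of the 17 were higher, and none rose by DESeq2. None of the 17 fell without the repeated library or without Confine replicate 3, 1 fell without Ctrl replicate 1, 1 without Ctrl replicate 2 and 4 without Ctrl replicate 3, and 5 fell with library size alone.

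Of 14 other tested lncRNAs with known functions, Morrbid (listed as Gm14005, 0.99), which restrains a proapoptotic neighbour gene in cis, and Airn (0.85), an imprinted antisense RNA, rose. The median was 0.15, and 12.8% of all tested genes were higher. Without the repeated library, without Confine replicate 3 or without Ctrl replicate 1, 1 of them passed.

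Total counts were 22287210 to 27853805 in Ctrl and 27290138 and 32537550 in Confine. LncRNA-type genes took 1.197% to 1.375% of counts in Ctrl and 1.467% and 1.479% in Confine, and mitochondrial genes 0.6891% to 0.8063% and 0.6919% to 0.7498%. Of 12 fibroblast markers 9 were tested and 6 rose, with a summed level of 8940 to 9780 CPM in Ctrl and 16100 to 16900 CPM in Confine, while Thy1 and Lum had at most 3 counts per library. Of 7 epithelial markers only Krt19 was tested, Epcam, Krt18 and Cldn4 were at 0, and the sum was 0.34 to 0.491 CPM in Ctrl and 3.89 to 8.77 CPM in Confine. No endothelial marker of 6 was tested, Emcn and Cldn5 were at 0, and the sum was 0.298 to 0.718 CPM in Ctrl and 0 to 0.159 CPM in Confine. Of 9 leukocyte markers 3 were tested, with Cd68 and Csf1r higher and Lyz2 lower, Adgre1 and Cd3e were at 0, and the sum was 7.31 to 8.39 CPM in Ctrl and 18.3 to 26 CPM in Confine. The part of these differences in the results on the 8 RNAs was not tested.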

How the data were processed

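The authors deposited raw read counts per gene, with no normalization, in 6 columns, 3 per group, and 0 columns were left unused. Poly(T)-selected RNA was made into dUTP libraries, which mark the strand, and the submitters' processing notes name Trim Galore 0.6.10, HISAT2 2.1.0, SAMtools 1.5, featureCounts and mm10. The strand and multi-overlap settings of the counting are not given in the sources used here, and they could move reads between a host gene, the small RNAs within it and antisense genes. GENCODE M21 (GRCm38) holds 54587 of the 55335 identifiers in the same version and 55154 in any version. The 8 genes matched by symbol. RefSeq start windows were found for 7 of them, those of Neat1 not among them, and the Mir17hg window was not used because its start lies within the microRNA cluster.

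Genes were kept by filterByExpr, scaled by TMM (factors 1.04, 1.08 and 1.06 in Ctrl, 0.910 and 0.924 in Confine) and tested two-sided in edgeR 4.0.16 (quasi-likelihood, R 4.3.3), with 3 residual degrees of freedom and Benjamini-Hochberg adjustment over 15881 genes. Where 3 against 3 libraries had been deposited, 3 against 2 were fitted. Log2 CPM used a prior count of 1. A level of 3 counts equals 0.101 to 0.128 CPM. Intervals and such floors cover the spread between libraries or counting error only, because PCR copies of a molecule were not marked. DESeq2 1.42.0, limma-voom (limma 3.58.1), other scalings and filters, a replicate block and fits without 1 library were the alternatives. On simulated counts for 15881 genes with 200 changed, 52% of changes of 2-fold and 94% of changes of 4-fold were recovered. False calls were 3.95%. These rates may not carry over to the data, where 3654 genes passed the test.

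The 8 genes and the lists were chosen with earlier results of these data known. Genes named from a list were those that passed the test, up to 6 by absolute log2 fold change, and Nono, Sfpq, Pspc1, Fbl, Dkc1, Drosha, Dgcr8, Upf1, Elac2 and Mcm7 whatever their p. Ruvbl1, Nhp2, Snu13, Srsf1, Clk1, Zbtb37, Tlcd2 and Mir100hg, and the wider classes of hosts by annotation, were added after their values were seen. In the lists, Snhg4, Snhg7 and Mir181a-1hg did not match a gene row by name. Some genes of these lists are counted but not reported here by name.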

Additional observations from a re-analysis of the deposited data

How the results depend on the processing

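Of the 8 RNAs, 5 rose in the fit reported. The number that rose was 3 with library size alone and from 1 to 5 with each library left out (1 without the repeated Confine library, 3 without Confine replicate 3, 3 without Ctrl replicate 1). From 0 to 1 fell in those fits, and from 1 to 5 passed in either direction. With library size alone 1 fell, and with all 6 deposited columns as separate samples 1 fell, Snhg15 in both. No RNA changed sign in any of the 15 other fits. Fits that leave 1 Confine library take its spread to be that of the other libraries.

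Whether replicate numbers pair the samples cannot be settled, because only 2 pairs exist. With the repeated library as number 2, the Ctrl difference between numbers 2 and 3 correlated with the Confine one at -0.053 across 15881 genes. With it as number 1, the correlation of such differences was 0.052. With the replicate block and the repeated library as number 2, 2 of the 8 RNAs passed, and 2 rose (Neat1 and Mir22hg), with 2528 genes called, of which 2479 were also called without the block. With the repeated library as number 1, 5 rose and 4933 genes were called, of which 3534 were also called without the block.

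Over all tested genes, 3654 passed, 2035 higher and 1619 lower. With an absolute log2 fold change above 1.5 as well, 1271 passed (777 higher, 494 lower), and with edgeR's glmTreat against a fold change of 1.5, 1691 passed (1014 higher, 677 lower). With all 6 columns 2456 were lower, and with library size alone 2805. With each library left out, from 2054 to 4426 passed, 1196 to 2411 of them higher and 850 to 2015 lower. The low counts came without Confine replicate 3 (2054, 1196 of them higher and 858 lower) and without the repeated library (2256). The difference in the log2 ratio of Neat1 to Malat1 stayed positive, from 0.01 to 0.41. Depth limits Mir17hg most, with 59 to 107 counts per library. The list counts in fits other than library size alone were added after the data were seen. The cause of these changes was not tested.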
